A study of Mus musculus with 14 samples.

Results

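The activity-dependent and immediate early genes described here are Npas4, Fos, Fosb, Junb, Egr1, Nr4a1, Nr4a2, Arc, Ier2 and Dusp1, 10 of the 19938 genes measured in isolated mouse pancreatic islets. Each was the only transcript cluster (the probe group that reports a gene on the array) that the array's gene table gives to its symbol. Npas4 was selected on its measured log2 values, which were lower in IKK2-CA than in control islets, so its values are given as a description with no test. The other 9 were chosen by name as early genes, and the question was whether they fall too. RNA was measured on 14 Affymetrix Mouse Gene 1.0 ST arrays. The 5 IKK2-CA arrays were of islets from diabetic IKK2-CApdx-1 mice, in which the Pdx-1-tTA driver directs constitutively active IKK2, the kinase that switches on NF-κB, to β-cells. The 4 Pdx-1+/- arrays were of mice that are haploinsufficient for Pdx-1 through the same Pdx-1-tTA allele. The 5 control arrays were of control mice, whose alleles the labels do not give. All mice were 11 weeks old, untreated, and on an equal mix of the C57BL/6 and NMRI backgrounds. The design gives as many mice as arrays, but no label ties an array to 1 mouse, so p-values measure only the spread between these samples, which may be technical. IKK2-CA islets differ from control islets by the driver allele, the active kinase and the diabetes together, and these cannot be told apart here.

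Immediate early genes are switched on within minutes of a stimulus, by transcription factors that are already present in the cell and need no new protein. In β-cells glucose metabolism closes potassium channels, the membrane depolarises and calcium enters, and the calcium and cAMP signals act on CREB and serum response factor at early gene promoters. Npas4 is known in neurons and β-cells as the member most closely tied to calcium entry, whereas Fos, Egr1 and Dusp1 also answer growth factors, stress and the handling or enzymatic digestion of tissue.

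The promoter windows of 4 members are shown because these genes stand for the patterns described below. Npas4 was lower in IKK2-CA islets, Nr4a2 was higher, and Fos and Dusp1 varied together from array to array. Each window is RefSeq sequence of build GRCm38.p6, 300 bases long, from 250 bases before to 50 after the start that the RefSeq table takes for the gene. For Npas4 this start lies 13468 bases inside the outer end of the listed gene, and for Nr4a1, whose window is counted below, 12944 bases inside. Npas4 lies at chr19:4989922-4990221 on the minus strand, Fos at chr12:85473640-85473939 on the plus strand, Dusp1 at chr17:26508423-26508722 on the minus strand and Nr4a2 at chr2:57123954-57124253 on the minus strand. Capitals mark TGACG on either strand, the half-site of the cAMP response element to which CREB binds.
Npas4: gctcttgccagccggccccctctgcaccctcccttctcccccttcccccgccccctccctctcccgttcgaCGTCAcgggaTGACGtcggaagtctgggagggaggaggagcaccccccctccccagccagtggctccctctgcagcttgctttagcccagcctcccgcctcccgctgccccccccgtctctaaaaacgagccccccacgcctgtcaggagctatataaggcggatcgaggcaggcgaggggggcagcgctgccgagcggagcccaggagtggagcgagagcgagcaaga
Fos: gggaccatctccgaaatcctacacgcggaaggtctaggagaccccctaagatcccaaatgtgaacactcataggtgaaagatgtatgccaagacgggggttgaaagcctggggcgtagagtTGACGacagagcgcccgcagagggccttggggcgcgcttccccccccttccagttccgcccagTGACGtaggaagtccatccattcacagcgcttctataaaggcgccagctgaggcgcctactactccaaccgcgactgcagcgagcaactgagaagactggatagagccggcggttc
Dusp1: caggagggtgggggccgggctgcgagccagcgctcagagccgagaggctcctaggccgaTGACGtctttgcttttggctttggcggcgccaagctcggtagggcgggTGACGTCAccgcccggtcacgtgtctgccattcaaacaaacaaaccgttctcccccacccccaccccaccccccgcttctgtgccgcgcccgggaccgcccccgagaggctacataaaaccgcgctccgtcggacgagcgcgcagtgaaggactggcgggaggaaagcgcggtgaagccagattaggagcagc
Nr4a2: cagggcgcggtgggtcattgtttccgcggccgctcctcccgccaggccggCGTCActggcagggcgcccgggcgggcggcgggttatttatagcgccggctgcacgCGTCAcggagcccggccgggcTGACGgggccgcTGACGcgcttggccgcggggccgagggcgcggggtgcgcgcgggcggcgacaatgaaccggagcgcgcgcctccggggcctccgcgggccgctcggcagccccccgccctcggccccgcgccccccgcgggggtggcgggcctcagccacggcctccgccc

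Windows of 7 members were searched (Npas4, Fos, Fosb, Junb, Nr4a1, Nr4a2 and Dusp1). Egr1, on chromosome 18, was left out of the search, and no window was found for Arc and Ier2. The half-site TGACG, or CGTCA on the other strand, was in all 7 of them, with 17 matches, against 20.812% of all 32851 windows of this length. Nr4a1 and Nr4a2 held 4 matches each, Dusp1 held 3, Npas4 and Fos 2 each, and Fosb and Junb 1 each. The full element TGACGTCA, which contains the half-site on both strands, was in the Dusp1 window alone, against 1.79% of all windows. The κB site, to which NF-κB binds, had 1 match each in the windows of Npas4, Fos, Fosb and Nr4a1, against 8.459% of all windows. Matches to the CArG box of serum response factor, the AP-1 site TGANTCA, the Egr site GCGTGGGCG and the Nr4a site AAAGGTCA were not in these 7 windows, which says only that those letters are absent from them. A match describes the sequence and was not tested as a binding site.

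Values are robust multichip average (RMA) signals on a log2 scale, so 1 unit is a factor of 2, and they compare arrays for the same gene and not genes with each other. The gene medians of the arrays lay between 6.45 and 6.55 and their highest values between 13.64 and 13.73. Dusp1, Egr1, Fos and Nr4a1 read above 10.7 on every array, in the upper part of this range, where differences can be understated. Ins2, which encodes insulin, averaged 12.52 in IKK2-CA, 12.62 in Pdx-1+/- and 12.64 in control islets. The acinar enzyme genes Cpa1, Cela1 and Ctrb1 read 13.16 to 13.73, near the top of the range, on every array, so exocrine RNA was present in all groups, while the acinar transcription factor Rbpjl read 6.88 to 9.42. In such bulk samples fewer cells of a type and less RNA per cell cannot be told apart. A few arrays carried markers of other tissues. Sis, an intestinal disaccharidase, read 9.16 on array 4 of the Pdx-1+/- group against 3.31 to 3.45 on the rest of it, and 6.05 on control array 3. Adipoq, the adipocyte hormone adiponectin, read 10.60 on array 5 of the IKK2-CA group against at most 6.71 on the rest of it. Calls that change without these arrays are given beside the results.

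Npas4, a calcium-induced transcription factor that pairs with Arnt proteins, was lowest in IKK2-CA islets, intermediate in Pdx-1+/- islets and highest in control islets. The 5 IKK2-CA arrays read 6.78, 6.81, 5.49, 7.17 and 5.82. The 4 Pdx-1+/- arrays read 7.49, 7.71, 7.80 and 6.91, and the 5 control arrays 8.54, 7.50, 9.34, 8.63 and 7.84. Every IKK2-CA array lay below every control array, where 2.34% of all genes were lower without overlap. Groups next to each other in this order overlapped: IKK2-CA array 4 lay above Pdx-1+/- array 4, and Pdx-1+/- arrays 2 and 3 lay above control array 2. The means were 6.41 ± 0.72 (SD, n = 5) in IKK2-CA, 7.48 ± 0.40 (SD, n = 4) in Pdx-1+/- and 8.37 ± 0.72 (SD, n = 5) in control islets. The IKK2-CA mean was 3.88-fold below control (log2 -1.96), the ninth lowest difference of all genes, and 2.09-fold below Pdx-1+/- (log2 -1.06). The Pdx-1+/- mean was 1.86-fold below control (log2 -0.89). These comparisons share arrays, and the IKK2-CA and control values were those that led to the choice of Npas4. Without IKK2-CA array 5, Pdx-1+/- array 4 and control array 3, the log2 differences were -1.57, -1.10 and -0.46 in the same order.

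**Figure D1:**
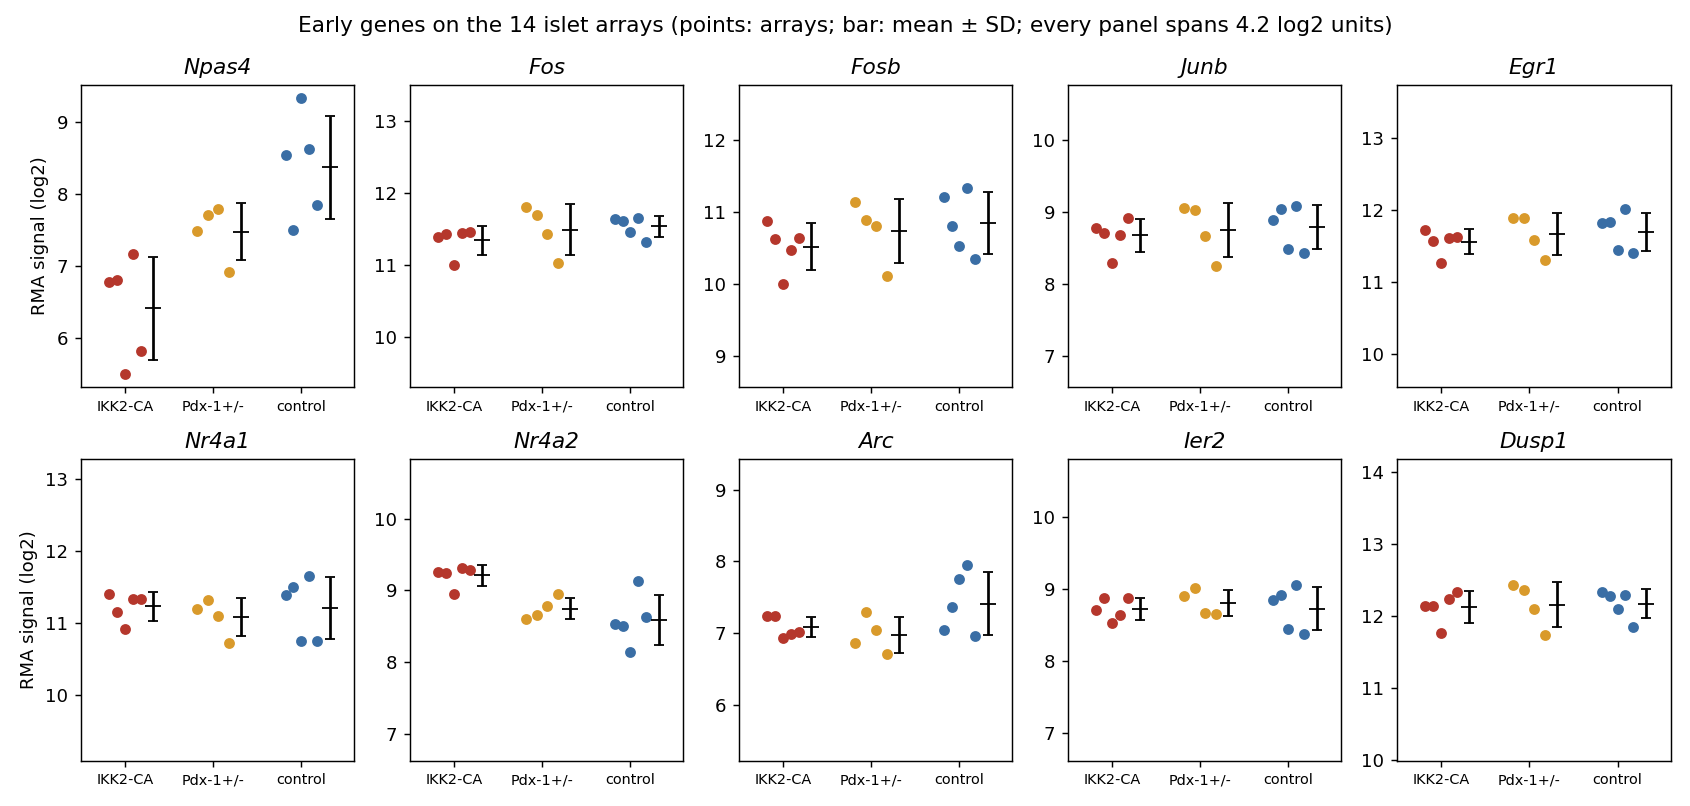
RMA signal (log2, vertical axis) of the 10 early genes in IKK2-CA, Pdx-1+/- and control islets; points are arrays and the bar beside them is the mean ± SD (n = 5, 4 and 5), with the same span of log2 units in each panel. Npas4 reads 5.49 to 7.17 in IKK2-CA islets, below all control arrays (7.50 to 9.34), Nr4a2 is higher in IKK2-CA islets, and the groups overlap for the other genes.

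Of the other 9 genes, 0 fell and 1, Nr4a2, rose in IKK2-CA islets against control islets (limma, adjusted p under 0.05). At an unadjusted p under 0.05 the count was also 1, Nr4a2, and 15.7% of all genes had such a p. Of all genes 0.682% rose and 1.56% fell by the same rule, 2.25% in all. The 9 differences had a median of -0.11 log2 with 7 below 0, while the median over all genes was -0.012, and the lowest bound of their 95% intervals was -0.81, the bound for Fosb. The 95% intervals of the 8 genes that did not pass all included 0.

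The Fos family supplies one partner of the AP-1 transcription factor and the Jun family the other. Fos read 11.39, 11.43, 10.99, 11.44 and 11.46 on the IKK2-CA arrays, 11.81, 11.70, 11.43 and 11.02 on the Pdx-1+/- arrays, and 11.64, 11.61, 11.46, 11.65 and 11.31 on the control arrays. The groups overlapped, and IKK2-CA array 3 and Pdx-1+/- array 4 were the lowest of all. Fos differed by log2 -0.19 between IKK2-CA and control (SE 0.14, 95% interval -0.49 to 0.10, limma adjusted p = 0.573). Fosb, which encodes the related protein FosB, read 10.88, 10.63, 10.001, 10.47 and 10.64 on the IKK2-CA arrays, 11.15, 10.90, 10.81 and 10.11 on the Pdx-1+/- arrays, and 11.22, 10.82, 10.54, 11.34 and 10.35 on the control arrays. IKK2-CA array 3 and Pdx-1+/- array 4 were again lowest and the groups overlapped. The difference between IKK2-CA and control was log2 -0.33 (SE 0.22, 95% interval -0.81 to 0.15, limma adjusted p = 0.543). Junb, a Jun protein that pairs with Fos proteins, averaged 8.68 ± 0.23 (SD, n = 5) in IKK2-CA, 8.75 ± 0.38 (SD, n = 4) in Pdx-1+/- and 8.79 ± 0.31 (SD, n = 5) in control islets. Its IKK2-CA difference from control was log2 -0.11 (95% interval -0.49 to 0.26, limma adjusted p = 0.847), smaller than the spread within any group.

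Egr1, a zinc-finger transcription factor that links early signals to later genes, averaged 11.56 ± 0.17 (SD, n = 5) in IKK2-CA, 11.67 ± 0.29 (SD, n = 4) in Pdx-1+/- and 11.70 ± 0.27 (SD, n = 5) in control islets. It differed by log2 -0.14 between IKK2-CA and control (95% interval -0.45 to 0.16, limma adjusted p = 0.726), within the spread of the control arrays. Ier2, a small nuclear protein of the early response, averaged 8.73 ± 0.15 (SD, n = 5) in IKK2-CA, 8.81 ± 0.18 (SD, n = 4) in Pdx-1+/- and 8.73 ± 0.30 (SD, n = 5) in control islets. Its IKK2-CA and control means differed by log2 -0.0046 (95% interval -0.29 to 0.28, limma adjusted p = 0.994). Dusp1, the phosphatase that switches MAP kinases off again, averaged 12.12 ± 0.22 (SD, n = 5) in IKK2-CA, 12.16 ± 0.31 (SD, n = 4) in Pdx-1+/- and 12.17 ± 0.20 (SD, n = 5) in control islets. The difference of log2 -0.045 between IKK2-CA and control was small beside these SDs (95% interval -0.35 to 0.26, limma adjusted p = 0.935). The sign of the Ier2 and Dusp1 differences turned under some settings, as did that of Nr4a1 below.

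Arc, which organises the cytoskeleton at active synapses in neurons, was highest in control islets by its mean, but on only part of the arrays. It read 7.25, 7.24, 6.94, 6.99 and 7.03 on the IKK2-CA arrays, 6.87, 7.30, 7.04 and 6.71 on the Pdx-1+/- arrays, and 7.04, 7.37, 7.75, 7.95 and 6.96 on the control arrays. Control arrays 2, 3 and 4 lay above every IKK2-CA and Pdx-1+/- array, and control arrays 1 and 5 lay among them. The IKK2-CA mean was 1.25-fold below control (log2 -0.33, SE 0.18, limma adjusted p = 0.407). The Pdx-1+/- mean was 1.35-fold below control (log2 -0.43, 95% interval -0.83 to -0.037, unadjusted p = 0.0343, limma adjusted p = 0.999), which did not pass over all genes.

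Nr4a1 and Nr4a2 encode orphan nuclear receptors whose activity follows their own rapid transcription. Nr4a2 read 9.26, 9.24, 8.96, 9.31 and 9.28 on the IKK2-CA arrays. The Pdx-1+/- arrays read 8.61, 8.66, 8.78 and 8.95, and the control arrays 8.54, 8.50, 8.15, 9.13 and 8.63. All IKK2-CA arrays lay above all Pdx-1+/- arrays, the closest being 8.96 and 8.95 (by the same measure 1.72% of all genes were higher without overlap), and above every control array except array 4, which exceeded IKK2-CA array 3. Nr4a2 rose 1.53-fold in IKK2-CA islets against control (log2 0.62, SE 0.14, 95% interval 0.31 to 0.92, limma adjusted p = 0.0384). Against Pdx-1+/- islets it was 1.38-fold higher (log2 0.46, SE 0.15, 95% interval 0.14 to 0.78, limma adjusted p = 0.455), which did not pass. The call against control was close to the threshold: it passed in 4 of the 14 fits that leave out 1 array each, those without IKK2-CA array 3 or 4, Pdx-1+/- array 4 or control array 4, and in the other 10 the adjusted p lay above 0.05, up to 0.106 without control array 3. Its log2 difference was 0.51 to 0.75 over these 14 fits, and 0.60 (limma adjusted p = 0.0563) without both IKK2-CA array 5 and the Pdx-1+/- array 4.

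Nr4a1 averaged 11.23 ± 0.20 (SD, n = 5) in IKK2-CA, 11.08 ± 0.26 (SD, n = 4) in Pdx-1+/- and 11.21 ± 0.43 (SD, n = 5) in control islets. The log2 difference between IKK2-CA and control was 0.020 (95% interval -0.37 to 0.41, limma adjusted p = 0.979). The control arrays were split for this gene, with 10.75 and 10.76 on arrays 3 and 5 against 11.39 to 11.65 on the others. Nr4a3, the third receptor of this family, was picked out after its values were seen. It read 8.77, 8.49, 8.51, 8.51 and 9.33 on the IKK2-CA arrays, 7.57, 7.77, 7.79 and 7.12 on the Pdx-1+/- arrays, and 8.10, 8.37, 6.82, 8.80 and 7.36 on the control arrays. The IKK2-CA arrays lay above all Pdx-1+/- arrays, where 1.72% of all genes were higher without overlap. Control array 4 lay within the IKK2-CA range for Nr4a3. Nr4a3 in IKK2-CA islets was at log2 0.83 against control (SE 0.31, limma adjusted p = 0.184) and at 1.16 against Pdx-1+/- (SE 0.33, limma adjusted p = 0.325), neither of which passed.

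**Figure D2:**
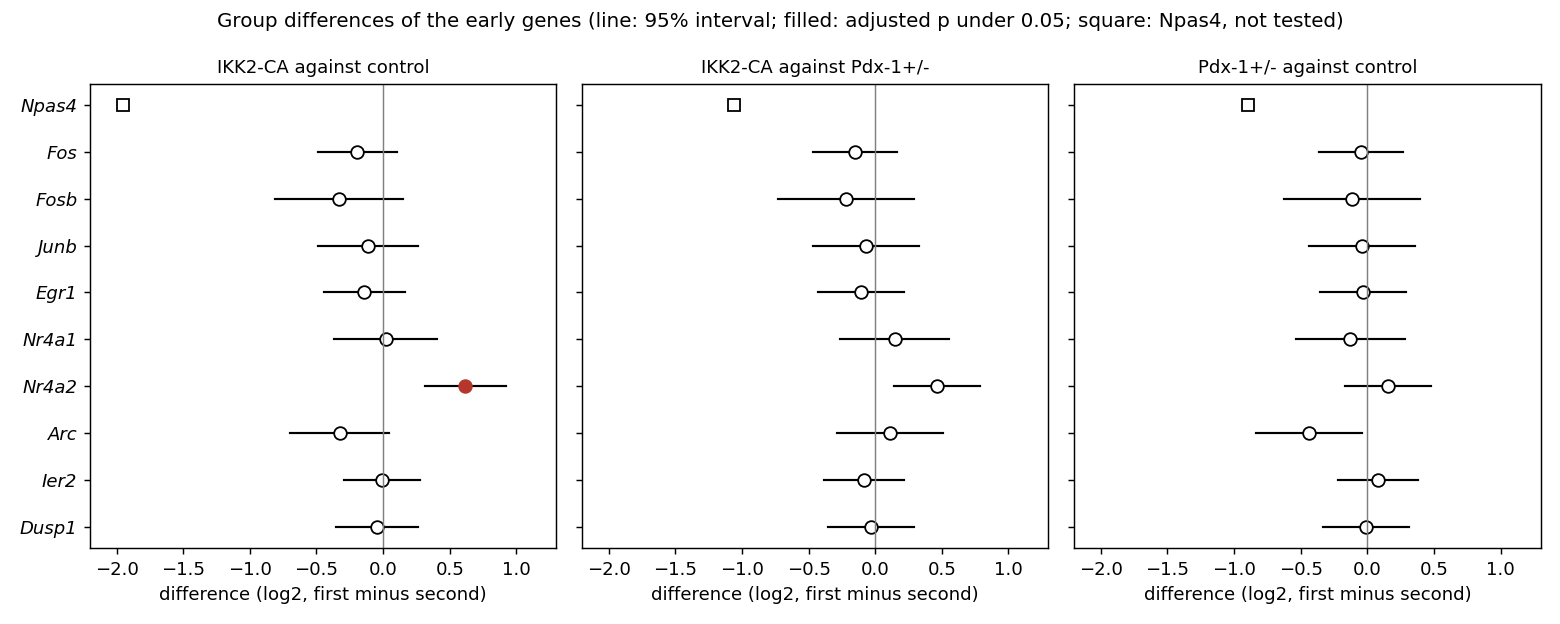
Difference in log2 RMA signal (horizontal axis, group named first minus group named second) of each early gene in the 3 comparisons; circles are limma estimates with 95% intervals, a filled circle has an adjusted p under 0.05, and squares are the Npas4 differences, shown with no test. Only the Nr4a2 circle of IKK2-CA against control (0.62) is filled, and the lines of the other genes in that panel cross 0.

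In the comparisons with Pdx-1+/- islets none of the 9 genes passed. In IKK2-CA against Pdx-1+/- islets 0 rose and 0 fell (limma; 1, Nr4a2, at an unadjusted p under 0.05), where 0.0752% of all genes were called and 7.02% had such an unadjusted p. The 9 log2 differences ran from -0.22 (Fosb) to 0.46 (Nr4a2), and the lowest adjusted p was 0.455. In Pdx-1+/- against control islets 0 rose and 0 fell (limma; 1, Arc, at an unadjusted p under 0.05), where 0.0953% of all genes were called and 4.71% had such an unadjusted p. The Pdx-1+/- and control arrays overlapped for each of the 10 genes, while 1.4% of all genes were lower and 0.481% higher without overlap. There the differences ran from -0.43 (Arc) to 0.16 (Nr4a2), and each adjusted p was 0.999. The order of the means was control, Pdx-1+/-, IKK2-CA from high to low for Fos, Fosb, Junb, Egr1 and Dusp1, but neighbours in this order overlapped for each of them, and leaving out array 4 put the Pdx-1+/- means of all 5 above control (log2 0.11 for Fos, 0.097 for Fosb, 0.13 for Junb, 0.089 for Egr1 and 0.13 for Dusp1).

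Within the groups, most early genes varied together from array to array. Each array's deviation from the mean of its own group was taken for each gene, and the 45 pairs of genes were correlated over the 14 arrays. In a two-sided permutation test within groups, with 100000 permutations and adjustment over the 45 pairs, 21 pairs passed, which were all the pairs among Fos, Fosb, Junb, Egr1, Nr4a1, Ier2 and Dusp1. Their Pearson r ran from 0.71 to 0.98, with adjusted p from 0.00045 to 0.0126, and from 0.70 to 0.95 without the 2 arrays farthest out for the first gene of a pair. Fos and Dusp1 were the closest pair (r = 0.98, Spearman's rho = 0.98, permutation p = 1e-05, the smallest that these permutations can give for r). The 24 pairs that include Npas4, Nr4a2 or Arc had r from -0.040 to 0.53, and 0 of them passed by permutation test.

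IKK2-CA array 3 lay below its group mean for all 9 genes other than Npas4, and Pdx-1+/- array 4, control array 3 and control array 5 for 8 of the 9 each. Control array 4 lay above its group mean for all 9. The mean deviation of the 9 genes ran from -0.33 log2 on Pdx-1+/- array 4 to 0.35 on control array 4. Npas4 followed this order in part. Its deviation had the sign of that mean on 10 of the 14 arrays, and it was low on IKK2-CA array 3 (-0.92), Pdx-1+/- array 4 (-0.56) and control array 5 (-0.53). It went the other way on 4 arrays, among them control array 3 (0.97) and control array 2 (-0.87). Its correlation with Fos was r = 0.42 (permutation p = 0.105, adjusted p = 0.205 over 45 pairs) and Spearman's rho = 0.11 (permutation p = 0.689, adjusted p = 0.912). With Arc, its closest member, it was r = 0.53 (permutation p = 0.0864, adjusted p = 0.177) and rho = 0.56 (permutation p = 0.0416, adjusted p = 0.0851).

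**Figure D3:**
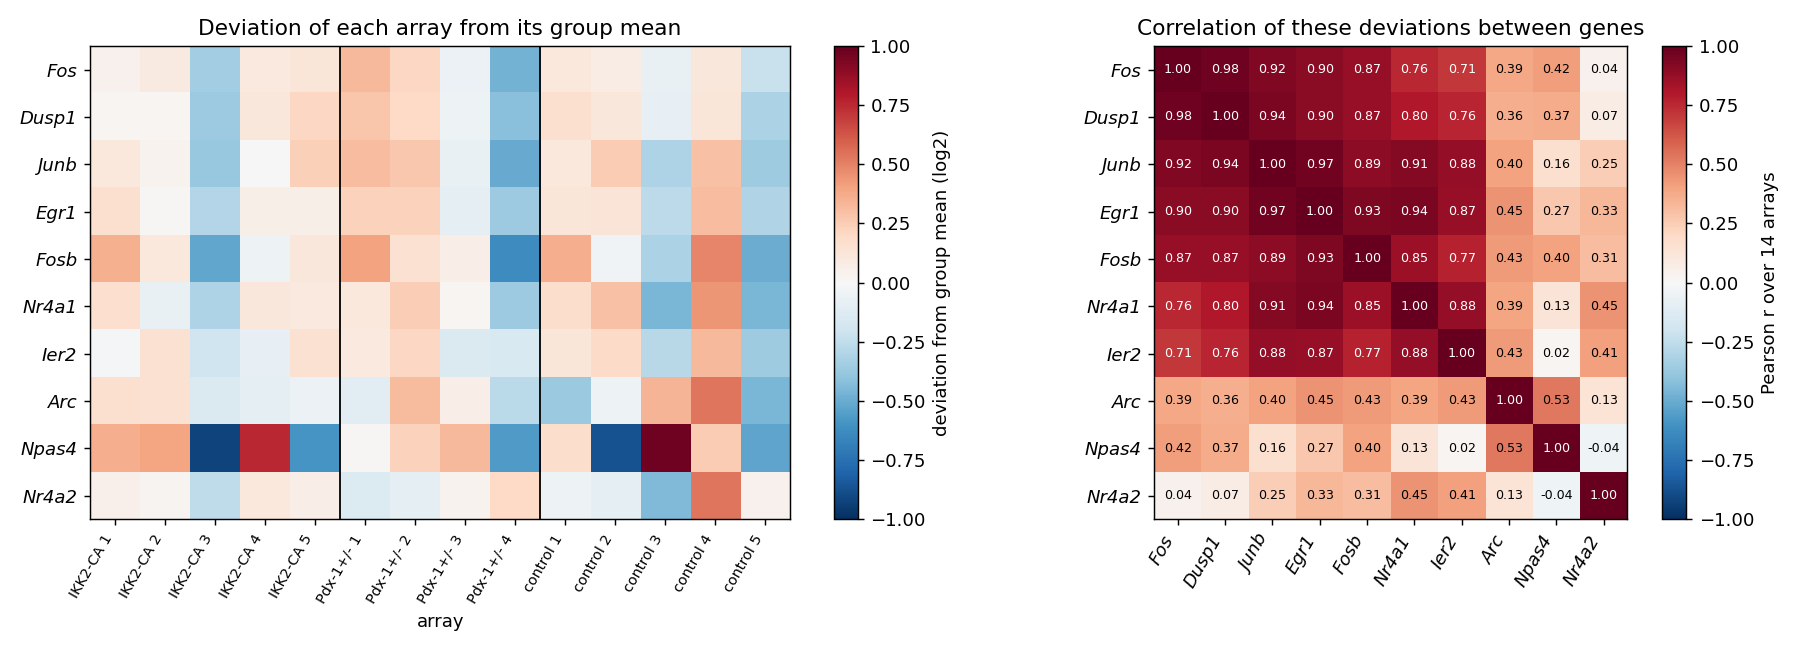
Left, deviation of each array (columns) from the mean of its group for each early gene (rows), in log2; right, Pearson r of these deviations between genes over the 14 arrays. The block from Fos to Ier2 holds r from 0.71 to 0.98, while Npas4, Nr4a2 and Arc have lower r with the genes of the block (0.019 to 0.45). IKK2-CA array 3, Pdx-1+/- array 4 and control arrays 3 and 5 are low across the block, control array 3 least so for Fos (-0.075) and Dusp1 (-0.079).

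These correlations share their arrays, and many genes outside the family varied in the same way. Of the 19937 other genes 698 (3.5%) had an r of at least 0.8 with Fos, among them 4 members, Dusp1, Junb, Egr1 and Fosb. By these deviations, the 5 genes most like Fos over the 14 arrays were Dusp1 (r = 0.98), Tns2 (0.97), which encodes a focal adhesion protein, S100a10 (0.97), a partner of annexin A2, Plpp1 (0.97), a lipid phosphatase, and App (0.97), the amyloid precursor protein. The 5 most like Npas4 were Fam135b (r = 0.95), Inha (0.95), the inhibin α-subunit, Dnah7b (0.95), a dynein heavy chain, Erc2 (0.94), a protein of presynaptic active zones, and Sun1 (0.93), of the nuclear envelope. For Npas4 0 of the 9 other members reached 0.8, against 182 (0.913%) of all other genes.

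Markers of cell types and of stress were set against Fos, Npas4 and Nr4a2 in the same way, as mean deviations of 13 lists. Of these 39 relations 0 passed by permutation test after adjustment over the 39. By r, Fos varied most with the heat shock genes (r = 0.82, permutation p = 0.00815, adjusted p = 0.108), with rho = 0.64 (permutation p = 0.0401). Without the 2 arrays farthest out for that list r was 0.50. The r of Fos with the endothelial markers was 0.71 (permutation p = 0.00831, adjusted p = 0.108), with rho = 0.72 (permutation p = 0.00316). Fos had r = -0.67 with the acinar, -0.67 with the intestinal, 0.66 with the duct and 0.66 with the stellate markers. Their permutation p were 0.0369, 0.0708, 0.0172 and 0.0481 in that order. Without the 2 farthest arrays these r were -0.63, -0.38, 0.71 and 0.44. Npas4 varied most with the β-cell markers (r = 0.81, permutation p = 0.00385, adjusted p = 0.108), with rho = 0.80 (permutation p = 0.00657). Without the 2 farthest arrays r was 0.78. Npas4 had r = -0.64 with the T and natural killer markers (permutation p = 0.0293, adjusted p = 0.229). With the B markers it had r = -0.57 (permutation p = 0.0699, adjusted p = 0.307). The part of these cell types or of handling in the early gene values was not tested.

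Between groups, no gene of the heat shock and handling list passed, while against control 4 of 7 β-cell markers fell in IKK2-CA islets, where Npas4 was lowest. The 9 measured heat shock genes of 10 had a mean signal of 9.84 to 10.31 on the IKK2-CA arrays, 9.77 to 10.22 on the Pdx-1+/- arrays and 9.90 to 10.24 on the control arrays, and 0 passed against control (limma; 1 at an unadjusted p under 0.05, as 15.7% of all genes had). The chaperone genes Hspa1a and Hsph1 were at log2 -0.054 and 0.0077 there (limma adjusted p = 0.912 and 0.992). The 7 β-cell markers had a mean signal of 9.16 to 10.28 on the IKK2-CA arrays, 9.77 to 10.15 on the Pdx-1+/- arrays and 10.28 to 11.04 on the control arrays. In Pdx-1+/- against control islets 0 of the 7 passed, but all 7 differences were negative. Of these, 5 had a limma unadjusted p under 0.05, beside 4.71% of all genes. In IKK2-CA against Pdx-1+/- islets all 7 were negative, 0 passed and 0 had such an unadjusted p, beside 7.02% of all genes. Of the 7 markers 4 fell in IKK2-CA islets against control, where 1.56% of all genes fell. These were Ucn3, a hormone of mature β-cells (log2 -2.07, limma adjusted p = 0.0407), Slc2a2, the glucose transporter (-1.92, 0.00694), Mafa, an activator of the insulin gene (-1.22, 0.0172), and G6pc2, a glucose phosphatase (-1.16, 0.00828). Slc2a2 and G6pc2 passed in all 14 fits without 1 array, Mafa in 13 (not without control array 3) and Ucn3 in 4. Without the IKK2-CA array 5 and Pdx-1+/- array 4 that carried other tissues' markers, Ucn3 did not pass (limma adjusted p = 0.0606), and without control array 3 as well, neither Ucn3 (0.151) nor Mafa (0.091) did. The 4 alpha- and delta-cell markers had a mean signal of 9.54 to 9.88 on the IKK2-CA arrays and 9.59 to 10.04 on the control arrays, and 1 of them, the δ-cell hormone Sst, fell (log2 -0.67, limma adjusted p = 0.0358), a call that held in 5 of the 14 fits without 1 array and was lost without those 3 arrays (limma adjusted p = 0.127). Of the 6 macrophage and dendritic markers 1, the integrin Itgax, rose (log2 2.16, limma adjusted p = 0.00395), where 0.682% of all genes rose; their mean signal was 8.43 to 9.64 on the IKK2-CA arrays and 8.22 to 8.66 on the control arrays. None of the measured acinar, duct, endothelial, stellate, T and natural killer, B, intestinal, adipocyte or Schwann markers passed in this comparison. All 4 T and natural killer markers were higher, 2 at a limma unadjusted p under 0.05, beside 15.7% of all genes. Their mean signal was 6.92 on IKK2-CA array 3 and 6.97 on array 5, where Npas4 read lowest. It was 5.26 to 5.90 on the other IKK2-CA arrays, 5.10 to 5.68 on the Pdx-1+/- arrays and 5.29 to 5.62 on the control arrays. The part of fewer or altered β-cells, or of more immune cells, in the Npas4 difference was not tested.

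Further genes of the early response gave no call. Of 62 measured genes in 5 further lists, 0 rose and 0 fell in IKK2-CA against control islets (limma; 5 higher and 6 lower at an unadjusted p under 0.05, where 15.7% of all genes had such a p). Among the other AP-1 and ATF genes 6 of 10 differences were positive, with a median of 0.024 log2; Jun, the main Jun partner of Fos, was at -0.14 (adjusted p = 0.673) and Jund at 0.022 (0.971). Among 16 other early transcription factors 13 were positive, with a median of 0.14; Egr2 and Egr3, relatives of Egr1, were at 0.40 and 0.14 (adjusted p = 0.357 and 0.669). The 14 feedback phosphatases and RNA decay factors had a median of 0.088, and the MAP kinase phosphatases Dusp2 and Dusp4 were at 0.51 and 0.49 (adjusted p = 0.0892 and 0.112), both past the threshold in 1 of 24 alternative settings, without IKK2-CA array 4. All of these adjusted p are from limma over all genes.

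None of the genes close to calcium and cAMP signals passed, although Sik1 and Crtc1 did with array weights (limma adjusted p = 0.0476 and 0.0121). Of 10 cAMP and calcium responsive genes 9 were positive in IKK2-CA against control islets, with a median of 0.23 log2. Crem, a CREB family regulator, was at 0.11 (limma adjusted p = 0.694) and Sik1, a kinase that CREB induces and that restrains it, at 0.46 (0.106). Sik1 read 9.31, 9.23, 9.36, 9.19 and 9.70 on the IKK2-CA arrays, all above the control arrays (9.14, 9.09, 8.78, 9.08 and 8.37), where 1.86% of all genes were higher without overlap. The 12 activity-dependent effectors had a median of -0.023, and Homer1 and Bdnf, both targets of neuronal activity, were at 0.00057 and -0.023 (limma adjusted p = 0.999 and 0.953). Of 14 measured upstream regulators and partners 9 were negative, with a median of -0.067; Creb1 was at -0.079 (limma adjusted p = 0.872) and its coactivator Crtc1 at -0.39 (0.0593). In IKK2-CA against Pdx-1+/- and in Pdx-1+/- against control islets 0 of the 62 genes passed as well (limma; 4 and 3 at an unadjusted p under 0.05, beside 7.02% and 4.71% of all genes).

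Among the 8 related lists, the genes of calcium entry and depolarisation were the one with calls. Of 8 measured genes 2 fell in IKK2-CA islets against control, Cacna1d and Slc2a2 (also among the β-cell markers), where 1.56% of all genes fell. All 8 differences were negative, from -1.92 for Slc2a2 to -0.034, with a median of -0.51 log2 beside -0.012 over all genes. The list also holds Kcnj11 and Abcc8, subunits of the potassium channel whose closing depolarises the membrane. Kcnj11 averaged 7.21 in IKK2-CA and 7.65 in control islets, and Abcc8 10.05 and 10.82. The shared sign therefore gives no single direction for calcium entry. Cacna1d, a voltage-gated calcium channel of β-cells, read 7.66, 7.93, 7.27, 8.07 and 7.56 on the IKK2-CA arrays, 7.73, 7.96, 8.42 and 7.74 on the Pdx-1+/- arrays and 8.51, 8.04, 8.61, 8.63 and 8.35 on the control arrays. IKK2-CA array 4 overlapped with control array 2. The difference was log2 -0.73 (SE 0.17, limma adjusted p = 0.0384), and it passed in 6 of the 14 fits without 1 array, the adjusted p reaching 0.126 without control array 3. It was also lost without IKK2-CA array 5 and the Pdx-1+/- array 4 (limma adjusted p = 0.0596), and without control array 3 as well (0.151). Slc2a2 read 8.88, 8.76, 8.78, 9.73 and 7.89 on the IKK2-CA arrays, all below the control arrays (10.30, 9.90, 11.28, 10.99 and 11.17), where 2.34% of all genes were lower without overlap. The Pdx-1+/- arrays read 9.37, 9.08, 9.52 and 9.23, also all below the control arrays, where 1.4% of all genes were lower without overlap. Their Slc2a2 difference from control was log2 -1.43, which did not pass. Whether the Npas4 level follows these genes was not tested.

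**Figure D4:**
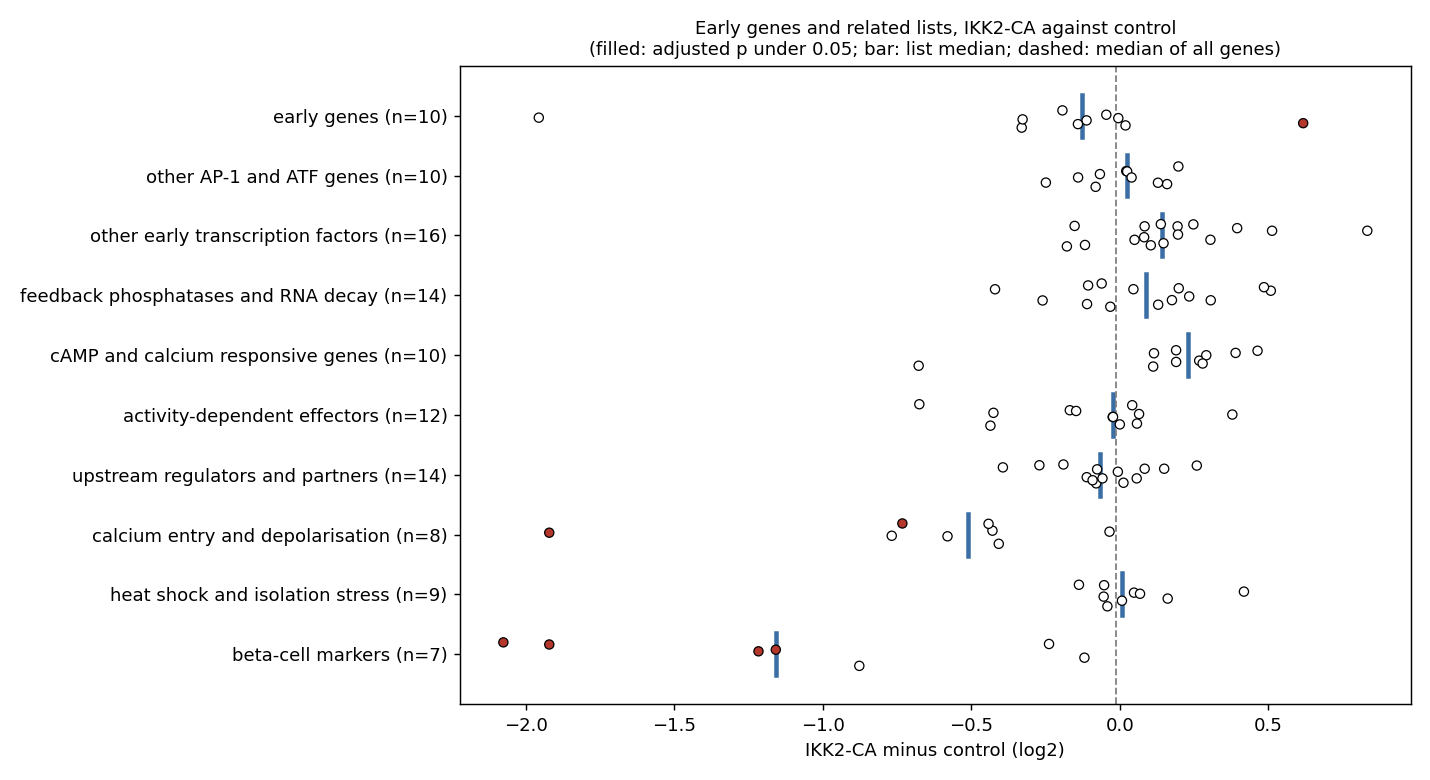
Difference in log2 RMA signal between IKK2-CA and control islets (horizontal axis) for each measured gene of the early genes, 8 related lists and the β-cell markers; filled points have a limma adjusted p under 0.05 (Npas4, the point at -1.96, is shown with no test), bars are list medians and the dashed line is the median of all genes (-0.012). Filled points lie among calcium entry and β-cell genes on the left and at Nr4a2 (0.62) on the right, and the medians of the other lists lie between -0.13 and 0.23.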

How the data were processed

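Per the labels and the submitters' processing notes, the authors summarised the arrays with RMA in Affymetrix Expression Console (version not given). From their range, the deposited values were read as log2 signals; no source states the log base. Of 35556 transcript clusters, 21789 with 1 gene symbol were kept; 1621 with several and 12146 not listed were left out. For the 999 genes with several clusters the one with the highest mean was used, giving 19938 genes with no further normalization or filter on signal.

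Genes were tested with limma 3.58.1 in R 4.3.3 (lmFit and eBayes), in 1 fit of 3 group means over 14 arrays with 11 residual degrees of freedom, and p-values were adjusted by Benjamini-Hochberg over all genes of a comparison (threshold 0.05). The fit was tested on simulated data. SE is the moderated standard error. The number of arrays limits the precision. Replicate numbers recur in the groups, but correlations of same-number arrays after removing group means lay between -0.39 and 0.36, so no pairing was used.

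The members and lists were chosen with earlier results of these data known. Genes named were the 10 members; up to 4 members of each further list past the threshold in each direction; and otherwise the first 2 of a list (marker lists without calls are given as lists). Nr4a3 was added after its values were seen. Alternatives were other normalizations (array median centring, quantile), trend and robust estimation, only the 2 groups compared, no dim genes, averaged clusters, weights per array, a block for replicate number, and leaving out arrays. Promoter windows are RefSeq's (GRCm38.p6). Those of 7 members were searched, and member windows on chromosome 18, where Egr1 lies, were left out.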

Additional observations from a re-analysis of the deposited data

Results flagged for a closer look

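On IKK2-CA array 3 the signals of Fos and Nr4a2 stood apart from the rest of the group. Fos read 10.99 there against 11.39 to 11.46 on the other 4 IKK2-CA arrays, and its gap, as a share of the group's range, was 0.841, above Dixon's critical value for a group of this size. Nr4a2 read 8.96 there against 9.24 to 9.31, with a share of 0.793. These were 2 of 30 tests (10 genes in 3 groups), and chance flags about 1 in 20. The tests share arrays and most of the genes varied together, so the 2 flags on this array are not separate events. Without this array Nr4a2 still passed against control, and the Fos difference kept its sign.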

How the results depend on the processing

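Of 24 alternative settings, 11 kept Nr4a2 past the threshold in IKK2-CA against control islets. The count of the 9 tested genes called there was 0 instead of 1 in the fit of only the groups compared (Nr4a2 adjusted p = 0.0741), without IKK2-CA array 5 and the Pdx-1+/- array 4 together (0.0563; below, without 2 arrays), and without control array 3 as well (0.123; below, without 3 arrays); it was 0 to 1 when 1 array was left out. In the comparisons with Pdx-1+/- islets it stayed at 0 under all 24. Npas4 kept its direction in each comparison under all 24 settings. For Nr4a2 the replicate block gave the same difference (log2 0.62) and side of the threshold. The replicate number pairs no samples here; the block moved the calls over all genes to 197 against 448 in IKK2-CA against control, to 9 against 15 in IKK2-CA against Pdx-1+/- and to 9 against 19 in Pdx-1+/- against control, and of the genes named, Cacna1d, Ucn3 and Sst lost their calls. In the same order of comparisons, array weights gave 1431, 52 and 73 calls, and leaving out 3 arrays 186, 48 and 11. Leaving out 2 arrays gave 52 in IKK2-CA against Pdx-1+/-, the fit of only the groups compared gave 241 in IKK2-CA against control and 1 in IKK2-CA against Pdx-1+/-, and leaving out 1 array gave 120 to 980, 2 to 66 and 9 to 48. Of the genes named, those that gained a call in IKK2-CA against control were Crtc1 (3 of 24 settings), Dusp2 and Dusp4 (1 each, without IKK2-CA array 4) and Sik1 (1, array weights). Small differences changed sign. In IKK2-CA against control, Nr4a1 was at -0.0055 (2 arrays out) and -0.12 (3 arrays out), Ier2 at 0.0087 (median centring), 0.014 (quantile) and 0.12 (array weights), Dusp1 at 0.026, Hspa1a at 0.047, Bdnf at 0.038 and Homer1 at -0.035 (all array weights). Without 2 arrays Homer1 was at -0.044, Bdnf at 0.0066 and Hsph1 at -0.00061, and without 3 arrays Homer1 at -0.045, Bdnf at 0.014, Hsph1 at -0.024 and Jund at -0.031. In Pdx-1+/- against control, array weights put Fos at 0.11, Fosb at 0.11, Junb at 0.16, Egr1 at 0.11, Nr4a1 at 0.063 and Dusp1 at 0.15. Leaving out 2 arrays put Fos at 0.11, Fosb at 0.097, Junb at 0.13, Egr1 at 0.089 and Dusp1 at 0.13, and leaving out 3 arrays put Fos at 0.093, Fosb at 0.018, Junb at 0.052, Egr1 at 0.024, Dusp1 at 0.11 and Nr4a2 at -0.019. Quantile normalization put Junb at 0.0074 and median centring Dusp1 at 0.012. With 1 array left out, IKK2-CA against control ran from -0.095 to 0.13 for Nr4a1, -0.094 to 0.076 for Ier2, -0.12 to 0.046 for Dusp1, -0.081 to 0.092 for Jund, -0.044 to 0.042 for Homer1, -0.071 to 0.060 for Bdnf, -0.16 to 0.0030 for Creb1, -0.11 to 0.058 for Hspa1a and -0.090 to 0.18 for Hsph1. IKK2-CA against Pdx-1+/- ran from -0.24 to 0.030 for Junb and -0.17 to 0.058 for Dusp1. Pdx-1+/- against control ran from -0.15 to 0.11 for Fos, -0.25 to 0.097 for Fosb, -0.14 to 0.13 for Junb, -0.11 to 0.089 for Egr1, -0.010 to 0.16 for Ier2 and -0.10 to 0.13 for Dusp1. The cause of these changes was not tested. The deposited values give no signal over background, so it is unknown which dim genes were above it.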
